A study of Mus musculus with 4 samples.

Results

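The genes described are 8 that cells raise when bone morphogenetic protein (BMP) signalling is active: Id1, Id2, Id3, Id4, Smad6, Smad7, Smad9 and Bambi. They were chosen by name, and 7 of the 8 were found among the 23930 amplicons of the table, each through 1 amplicon. Id4 is not analysed here. The libraries come from progenitor cells of the subcutaneous tissue of C57BL/6 mice with floxed alleles of Gnas, the gene for the Gs alpha protein that turns on cyclic AMP production. The 2 control libraries (genotype wild type, Ad-GFP) were made from cells infected with an adenovirus for green fluorescent protein, and the 2 mutant libraries (genotype Gnas-/-, Ad-Cre) from cells infected with one for Cre recombinase. All 4 cultures then spent 7 days in osteogenic medium. The labels do not give the share of cells in which Cre had removed Gnas. Nothing in the labels tells whether both libraries of a group are from different animals or dishes, and the p-values thus reflect the spread among these 4 libraries, part of which may be technical.

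BMP ligands bind pairs of type I and type II receptor kinases, which phosphorylate Smad1, Smad5 and the product of Smad9. These receptor-activated Smads join Smad4, enter the nucleus and switch on a small set of genes within hours. The Id genes are the best known of them: Id proteins have a helix-loop-helix domain but no DNA-binding basic region, so they capture E proteins and keep them off DNA. Smad6 and Smad7 encode the inhibitory Smads, which block the receptors and form a negative feedback, Smad6 mainly on the BMP branch and Smad7 on both the BMP and the TGF-beta branch. Bambi encodes a receptor-like membrane protein with no kinase domain that acts as a decoy. Smad9 is itself raised by BMP signals. In mesenchymal progenitors BMP signalling is one of the main drives towards bone and cartilage.

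Among the 7 measured genes, the promoters of Smad7 and Bambi were left out of the search. For the others, the RefSeq table of promoters (GRCm38.p6) matched Id2, Id3, Smad6 and Smad9, and no entry was matched for Id1. The 250 bases before the RefSeq start are shown for Smad6 and Smad9. Smad6 is the inhibitory Smad whose libraries lay closest together, and Smad9 is the only receptor-activated Smad among the members. Capitals mark matches on either strand to GGCGCC (a GC-rich Smad element), CAGAC (a Smad box with a flanking base), TGACG (the half-site of the cAMP response element TGACGTCA) or CAGGTG (an E box bound by E proteins). The Smad6 window is chr9:64022060-64022309 on the minus strand and the Smad9 window chr3:54755332-54755581 on the plus strand, and neither touches an annotated exon of its gene.
Smad6: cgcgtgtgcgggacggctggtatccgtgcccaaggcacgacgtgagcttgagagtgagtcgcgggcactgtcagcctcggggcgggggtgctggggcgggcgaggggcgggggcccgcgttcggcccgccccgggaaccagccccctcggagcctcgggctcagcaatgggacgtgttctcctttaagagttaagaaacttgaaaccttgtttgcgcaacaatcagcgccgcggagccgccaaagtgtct
Smad9: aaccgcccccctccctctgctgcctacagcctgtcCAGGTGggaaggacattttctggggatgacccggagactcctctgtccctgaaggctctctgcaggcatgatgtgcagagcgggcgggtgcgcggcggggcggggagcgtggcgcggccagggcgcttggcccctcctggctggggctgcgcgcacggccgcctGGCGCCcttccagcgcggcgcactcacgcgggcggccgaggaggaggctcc

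The Smad9 window held 1 match to GGCGCC, starting 51 bases before the RefSeq start, and 1 to CAGGTG, 215 bases before it. The Smad6 window held no match to any of the 5 motifs. For Id2 and Id3, whose windows overlap exons of longer GENCODE transcripts, only 30 bases around a match are shown. The Id2 stretch is chr12:25096306-25096335 on the minus strand, and the Id3 stretch is chr4:136143642-136143671 on the plus strand.
Id2: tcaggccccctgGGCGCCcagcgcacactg
Id3: ctgtcctcggCGTCAGACcagcctaaggaa

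In the Id3 stretch a match to CAGAC overlaps one to TGACG read on the other strand, and a second CAGAC match lies 68 bases before the RefSeq start. That start is not among the 3 GENCODE starts of Id3, and all 250 bases of its window lie in GENCODE exons of the gene. Over 32851 promoter windows of the same length, 9.59% held GGCGCC, 42.2% CAGAC, 17.8% TGACG, 1.55% TGACGTCA and 17.2% CAGGTG. A match is a description of the letters, not of binding.

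None of the 7 measured genes passed the threshold between mutant and control libraries. Bambi had the largest difference: it averaged 12.5 RPM (reads scaled to a fixed library total) among controls and 35.4 RPM among mutants, a 2.83-fold ratio. Smad9 followed with a 2.44-fold ratio in the same direction, Id2 with 1.6-fold, and Smad7 lay 1.79-fold lower in the mutants. Id1, Id3 and Smad6 had mean levels within 1.16-fold of each other in the groups. All 7 passed the filter on low values (at least 1 RPM in at least 2 libraries) and were tested with limma on log2(RPM + 1). The added 1 shrinks the change of genes with few reads, and averaging logs can move a fitted fold change either way from the ratio of means. The same test called 2.3% of 11638 genes at an adjusted p below 0.05 (1.73% higher and 0.576% lower in the mutants).

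**Figure D1:**
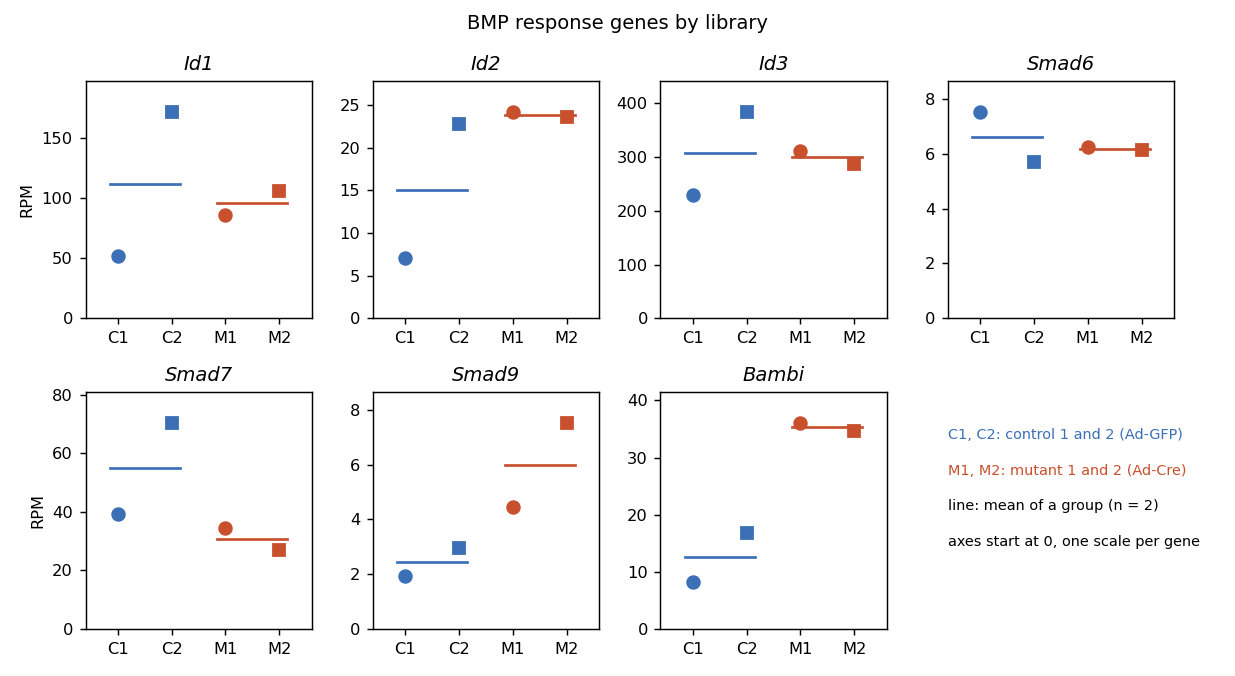
RPM (reads of the gene's amplicon scaled to a fixed library total) of each measured gene in control 1, control 2, mutant 1 and mutant 2, with lines at the group means and axes that start at 0. Bambi, Smad9 and Id2 have both mutant points above both control points, Smad7 has both below, and the points of Id1, Id3 and Smad6 overlap between groups.

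The libraries were deep, from 13483518 to 18455811 reads, but the controls were far apart. Pearson's r across tested genes, which are not independent replicates, was 0.916 for the pair of controls and 0.981 for the pair of mutants (log2 values). Between a control and a mutant it ran from 0.885 to 0.909, so the controls were little closer to each other than to the mutants. The stromal markers Pdgfra, Thy1 and Col1a1 were present in all 4 libraries. Pdgfra stood between 92.1 and 128 RPM, Thy1 between 2060 and 3982 RPM and Col1a1 between 5332 and 21009 RPM. In the same list the progenitor marker Dpp4 did not exceed 1.19 RPM. Cd34 read 0.054 RPM in control 1 and 7.19 in control 2, against 8.42 and 12.6 RPM in mutant 1 and mutant 2. Of 16 macrophage markers 12 reached 1 RPM in some library, and together they made up 51.9 RPM (control 1), 1050 (control 2), 30.3 (mutant 1) and 17 RPM (mutant 2). Of 14 endothelial markers 9 did, with sums of 20, 106, 77.3 and 92.5 RPM in that order, and Tie1 and Sox17 at 0 in all libraries. Of 8 pericyte markers 5 did, with sums of 48.4, 103, 298 and 398 RPM, of which Cspg4, Notch3 and Mcam made up most in the mutants, and Higd1b at 0 in all. Xist, the RNA of the inactive X chromosome, stood at 165, 0, 395 and 419 RPM and the Y-linked Ddx3y at 61.4, 124, 26.9 and 12.5 RPM in the same order (both named after their values were seen). With 0 RPM of Xist in control 2 and 165 in control 1, the controls were not repeats of 1 RNA sample. Loss of Gnas, the choice of virus and differences between the mice that gave the cells cannot be told apart. In bulk RNA, fewer cells of a type and less RNA per cell cannot be told apart either. No row is named Gnas, so the genotype labels were not checked against it.

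Id1, which encodes an inhibitor of E proteins and is a direct target of the BMP Smads, is on chromosome 2 at 152736251 to 152737410 (plus strand, the position of the gene in GRCm38, as for all genes here). Control 1 held 51.6 RPM, control 2 held 172, mutant 1 held 86.1 and mutant 2 held 106. Both mutant values therefore lay between the 2 controls. The counting error of the reads was small beside that gap: exact 95% Poisson intervals, which cover counting error only since amplicon reads are not independent molecules, ran from 48.4 to 55 RPM in control 1 and from 165 to 180 RPM in control 2. The log2 fold change was 0.02 (SE 0.57, 95% interval -1.44 to 1.48, limma adjusted p = 0.993), an interval that holds changes of over 2-fold both ways. With TMM or median-of-ratios scaling the estimate was -0.06 or -0.07.

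Id3, a close relative that binds the same E proteins, had a smaller range with the same libraries at its ends. It is on chromosome 4 at 136143497 to 136145755 (plus strand). Control 1 held 230 RPM of Id3, control 2 held 384, mutant 1 held 311 and mutant 2 held 288, again with both mutants between the controls. The log2 fold change was 0.01 (SE 0.30, 95% interval -0.75 to 0.78, limma adjusted p = 0.991), and it was -0.06 or -0.08 with TMM or median-of-ratios scaling. Of all pairs among the 7 genes, Id1 and Id3 had the most alike profiles, with a root mean square difference of 0.38 between their centred log2 values over 4 libraries.

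Id2, which also restrains E proteins and is used by many signals besides BMP, is on chromosome 12 at 25093799 to 25097140 (minus strand). Control 1 held 7.1 RPM, control 2 held 22.8, mutant 1 held 24.2 and mutant 2 held 23.6. Control 1 alone was low, and control 2 lay within counting error of both mutants (20.4 to 25.5 RPM, against 21.9 to 26.6 and 21.2 to 26.2 RPM). The log2 fold change of 0.84 (SE 0.55, 95% interval -0.55 to 2.23, limma adjusted p = 0.484) turned on which control was kept: it was 0.06 without control 1 and 1.62 without control 2.

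Smad6 and Smad7 encode the feedback inhibitors. Smad6, on chromosome 9 at 63953076 to 64022059 (minus strand), was at 7.53 RPM (control 1), 5.71 (control 2), 6.24 (mutant 1) and 6.13 (mutant 2). These values rest on 77 to 139 reads a library, and all 4 counting intervals overlap. It had the narrowest range of the 7 genes (0.35 on the log2 scale) and a log2 fold change of -0.07 (SE 0.32, 95% interval -0.90 to 0.75, limma adjusted p = 0.928), which became 0.10 without control 1.

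Smad7, on chromosome 18 at 75367529 to 75395935 (plus strand), was at 39.4 RPM (control 1), 70.5 (control 2), 34.5 (mutant 1) and 26.9 (mutant 2). Both mutants were below both controls, but mutant 1 and control 1 were close, with counting intervals of 31.8 to 37.3 and 36.6 to 42.4 RPM. The log2 fold change was -0.77 (SE 0.35, 95% interval -1.66 to 0.12, limma adjusted p = 0.333). It was -1.18 without control 1 and -0.36 without control 2. It was negative in each of 14 alternative analyses, with adjusted p from 0.0177 to 0.886. Control 2, where Id1, Id3 and Smad7 were highest, was also the library with the highest macrophage and endothelial sums (1050 and 106 RPM). The endothelial sums of mutant 1 and mutant 2 were not far below, at 77.3 and 92.5 RPM. Its 8 tested markers were divided: Pecam1, Cdh5, Emcn and Egfl7 were highest in control 2, and Flt1, Tek, Sox18 and Kdr in a mutant. The part of macrophages and endothelial cells in the result was not tested.

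Bambi, the decoy receptor gene, is on chromosome 18 at 3507923 to 3516404 (plus strand). Control 1 held 8.18 RPM, control 2 held 16.8, mutant 1 held 36.1 and mutant 2 held 34.7. Both mutants were above both controls, and the mutants were within counting error of each other (33.4 to 39.1 and 31.8 to 37.8 RPM). The log2 fold change was 1.51 (SE 0.39, 95% interval 0.52 to 2.49, limma adjusted p = 0.142). Its interval, unadjusted for the number of genes tested, was the only one of the 7 that left out 0. With 17.9% of all tested genes at an unadjusted p below 0.05, 1 of 7 is near that background. The estimate was 1.03 without control 1 and 1.99 without control 2, and it was positive in each of 14 alternatives, with adjusted p from 0.00285 to 0.798. A Bambi pseudogene has an amplicon of its own, which read at most 0.148 RPM. The summed level of 8 pericyte markers was also higher in both mutants (298 and 398 RPM, against 48.4 and 103 in the controls), though its members differed in direction: Cspg4, Notch3, Mcam and Rgs5 had both mutants above both controls, Abcc9 and Kcnj8 had both below, and Cox4i2 was highest in control 2 (26.2 RPM). The part of these markers in the Bambi difference was not tested.

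Smad9, the least abundant in reads, is on chromosome 3 at 54755582 to 54801257 (plus strand). Control 1 held 1.95 RPM, control 2 held 2.97, mutant 1 held 4.47 and mutant 2 held 7.54. These are 36, 40, 78 and 112 reads, so counting error matters more than for the other genes: the interval of control 2 (2.12 to 4.04 RPM) meets that of mutant 1 (3.53 to 5.58 RPM), and mutant 2 (6.21 to 9.08 RPM) lies above all others. The log2 fold change was 1.00 (SE 0.40, 95% interval -0.02 to 2.01, limma adjusted p = 0.286). Smad9 was also the 1 gene of the 7 whose mutants differed more (0.64 on the log2 scale) than its controls (0.43). It was not tested with a filter of 5 RPM.

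**Figure D2:**
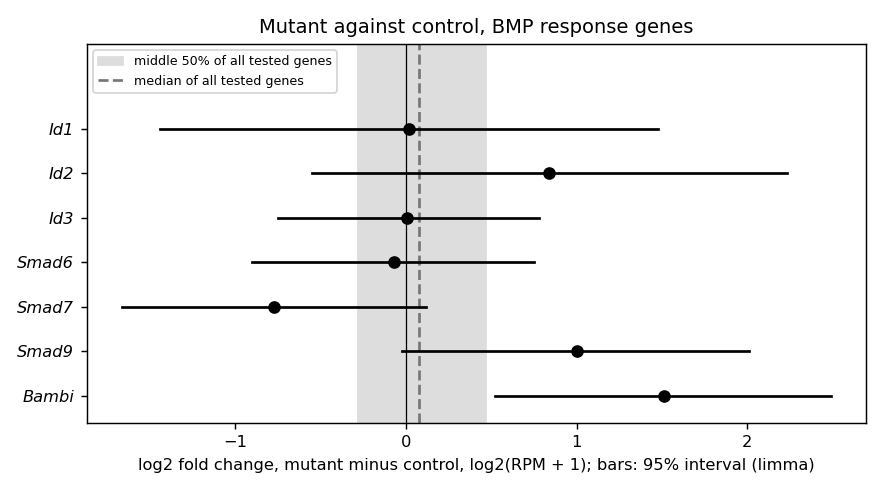
Log2 fold change (mutant minus control, on log2(RPM + 1)) of each measured gene, with bars for limma's 95% interval, the middle 50% of all tested genes in grey (-0.28 to 0.47) and their median of 0.08 as a dashed line. The bar of Bambi lies to the right of 0, and those of the other 6 genes cross it. The points of Id1 and Id3 move to just below 0 with TMM or median-of-ratios scaling.

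As a group the 7 genes were spread on both sides of no change. Their median log2 fold change was 0.02, beside 0.08 over all tested genes. In 3 of them (Id2, Smad9 and Bambi) both mutants were above both controls, and in 1 (Smad7) both were below. Of all tested genes, 30.6% had both mutants above and 21.1% had both below, so 4 of 7 is near the 51.8% of genes whose groups did not overlap. With 2 libraries a group, an exact two-sided permutation test of a single gene cannot go below p = 0.333.

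The controls differed from each other more than the groups did for several of these genes. Control 2 was above control 1 in 6 of the 7 genes, Smad6 being the exception, against 42% of all tested genes. The gap between controls was 1.72 on the log2 scale for Id1, 1.56 for Id2, 0.96 for Bambi, 0.82 for Smad7, 0.73 for Id3 and 0.43 for Smad9. A gap at least as large was found in 6.26% of tested genes for that of Id1 and in 7.69% for that of Id2. The median gap between controls was 0.82 in size over the 7 genes and 0.43 over all tested genes. Between the mutants the medians were 0.11 and 0.23.

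**Figure D3:**
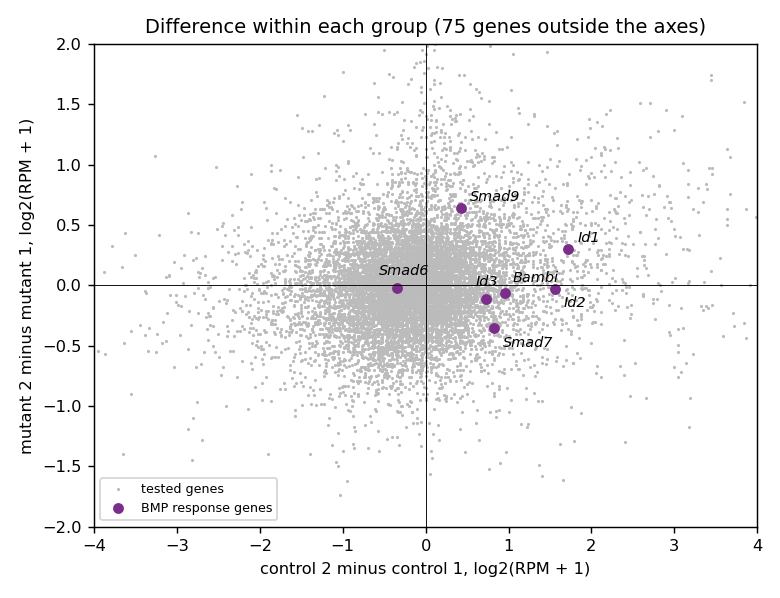
Difference between the 2 libraries of a group on the log2(RPM + 1) scale, controls on the x axis and mutants on the y axis, with grey points for tested genes (75 lie outside the axes) and purple points for the BMP response genes. All purple points but that of Smad6 lie to the right of 0, with Id1 at 1.72 and Id2 at 1.56, and Smad9 is highest on the y axis at 0.64.

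Leaving out a control changed which genes passed. Without control 1, Id1 (-0.84, adjusted p = 0.0334) and Smad7 (-1.18, adjusted p = 0.0177) were lower and Bambi (1.03, adjusted p = 0.0247) was higher in the mutants by limma. Without control 2, Id1 (0.88, adjusted p = 0.0365), Id2 (1.62, adjusted p = 0.00841) and Bambi (1.99, adjusted p = 0.00285) were higher. Id1 thus passed in opposite directions, and Bambi passed with the same sign both times. Over the 14 alternatives the adjusted p ran from 0.0334 to 0.998 for Id1 and from 0.00841 to 0.921 for Id2. The fits assume that the remaining control varies like the mutants, and they called 20.7% and 16% of all tested genes, against which 3 of 7 should be read. Without mutant 1 or without mutant 2 none of the 7 passed, and limma called 0 genes of 11638 (805 and 777 at an unadjusted p below 0.05).

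**Figure D4:**
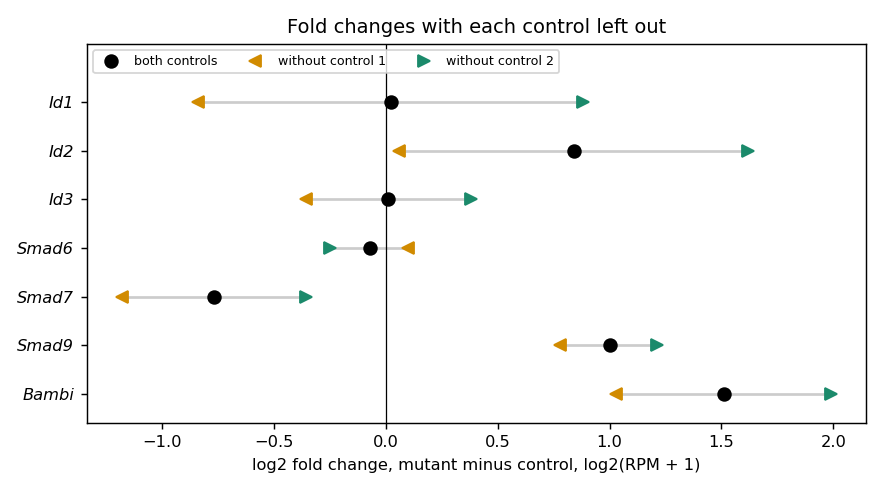
Log2 fold change of each measured gene (mutant minus control, log2(RPM + 1)) with both controls (circles), without control 1 (left triangles) and without control 2 (right triangles). Id1, Id3 and Smad6 change sign with the control that is kept, while Bambi stays between 1.03 and 1.99 and Smad7 between -1.18 and -0.36.

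Count tests on the whole reads also passed none of the 7. For Bambi edgeR's quasi-likelihood test estimated 1.41 on the log2 scale (adjusted p = 0.213) and DESeq2 estimated 1.39 (adjusted p = 0.0617), within the range of adjusted p over its alternatives given above. DESeq2 called 9.37% and edgeR 0.799% of all genes tested. Without adjustment edgeR put 1 of the 7 (Bambi) below 0.05 and DESeq2 put 2 (Bambi and Smad7) there, beside 17.4% and 19.3% of all genes, so both counts are near the background.

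Around the members, 8 lists held 99 other genes of the pathway, of which 91 were in the table and 72 were tested. Of these, 4 rose, 1 fell and 67 did not pass, beside the 2.3% called over all genes, and their median log2 fold change was 0.28 beside 0.08 over all genes. The genes that rose were Bmp3, Chrdl1, Dlx5 and Tbx2, and Grem1 fell. Several of these appeared in earlier results of the same libraries, so they are no independent support. None of the 5 passed when mutant 1 or mutant 2 was left out, where limma called no gene at all.

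Upstream of the members, 1 of 8 tested genes of the ligand list rose and 7 did not pass (median log2 fold change 0.59). In this list 4 had an unadjusted p below 0.05 by limma, beside 17.9% of all tested genes. The count and median include Bmp1, whose product is a protease and not a ligand (log2 fold change -0.13, limma adjusted p = 0.807). Bmp3, whose product is a BMP family member that opposes the osteogenic ligands, had no read in either control against 13.1 and 12.6 RPM in mutant 1 and mutant 2, which is at least 137-fold higher taking 3 reads over the control group as the floor (limma adjusted p = 0.0196, and 0.0562 with no filter, in a range of 1.2e-08 to 0.532 over 14 alternatives). Few reads came from the classical ligand genes: Bmp2 did not exceed 0.921 RPM, Bmp7 did not exceed 0.067 RPM, and Bmp4 read 0 and 2.45 RPM in the controls against 4.87 and 5.66 in the mutants (limma adjusted p = 0.256). Bmp1, Bmp2, Bmp4 and Bmp7 were named after their values were seen.

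None of 10 tested receptor and co-receptor genes passed by limma, and none had an unadjusted p below 0.05 (median log2 fold change 0.17). The nearest were the co-receptor genes Rgma (log2 fold change 0.76, adjusted p = 0.327) and Rgmb (-0.34, adjusted p = 0.517) and the type I receptor gene Bmpr1b (-0.50, adjusted p = 0.509). None of the 5 Smads that carry the signal passed either, again with none at an unadjusted p below 0.05 (median 0.29). Smad5 read 84.7 and 52 RPM in the controls against 91.6 and 95 in the mutants (log2 fold change 0.48, adjusted p = 0.449). Smad1 read 85.6, 67.1, 86.7 and 102 RPM in the order of the libraries (adjusted p = 0.547), and Smad2 of the TGF-beta branch differed by 0.29 on the log2 scale (adjusted p = 0.615).

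Of 10 tested extracellular antagonist genes, whose products bind BMP ligands, 1 rose, 1 fell and 8 did not pass (median log2 fold change 0.35). By limma 7 of the 10 had an unadjusted p below 0.05, beside 17.9% of all tested genes. Grem1 read 35.5 and 47.9 RPM in the controls against 2.29 and 2.09 in the mutants, and fell by 3.73 on the log2 scale (SE 0.31, limma adjusted p = 0.0196). Chrdl1 read 1.95 and 0 RPM in the controls against 90.2 and 68.6 in the mutants (log2 fold change 5.54, SE 0.57, limma adjusted p = 0.0229). Its call was lost by edgeR (adjusted p = 0.0983), by DESeq2 (0.0853) and with no filter (0.0517), in a range of 7.63e-05 to 0.532 over 14 alternatives. Nog, which encodes noggin and is often raised by BMP as feedback, did not exceed 0.115 RPM (named after its values were seen).

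Inside the cell, 0 of 10 tested Smad ubiquitin ligase and corepressor genes passed by limma, with 2 at an unadjusted p below 0.05 (median log2 fold change -0.13). Skil, which encodes the corepressor SnoN, read 53.4 and 57.8 RPM in the controls against 26.3 and 27.5 in the mutants (log2 fold change -1.02, adjusted p = 0.103). Tgif1, another corepressor gene, had a log2 fold change of -1.27 (adjusted p = 0.139) and the phosphatase gene Ctdsp1 one of 0.42 (adjusted p = 0.452). DESeq2 called Skil (adjusted p = 0.00413) and Tgif1 (adjusted p = 0.00512), and limma called Tgif1 with a replicate block (0.0494) and without control 2 (0.0136), and Skil without either control (0.018 and 0.0305). Over 14 alternatives the adjusted p of Skil and Tgif1 reached 0.742 and 0.797.

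Of 13 other BMP target genes tested, 2 rose, 0 fell and 11 did not pass (median log2 fold change 0.37). By limma 4 of the 13 had an unadjusted p below 0.05, beside 17.9% of all tested genes. Dlx5, a homeobox gene of bone formation, read 0 and 0.593 RPM in the controls against 45 and 40.7 in the mutants (log2 fold change 5.12, SE 0.37, limma adjusted p = 0.0176). Its call was lost by edgeR (adjusted p = 0.0626), in a range of 0.000147 to 0.532 over 14 alternatives. Tbx2, a T-box repressor gene, read 2.76 and 1.85 RPM in the controls against 16.3 and 30.6 in the mutants (log2 fold change 2.83, SE 0.42, limma adjusted p = 0.0456). Its call was lost by edgeR (adjusted p = 0.0578), with a pseudocount of 5 (0.0519) and with no filter (0.105), in a range of 2.55e-07 to 0.611 over 14 alternatives. Both genes also answer to signals other than BMP. Atoh8, a BMP target named after its values were seen, read 10.5 and 45.1 RPM in the controls against 47.2 and 90.6 in the mutants (adjusted p = 0.348), with control 1 low as for Id2.

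**Figure D5:**
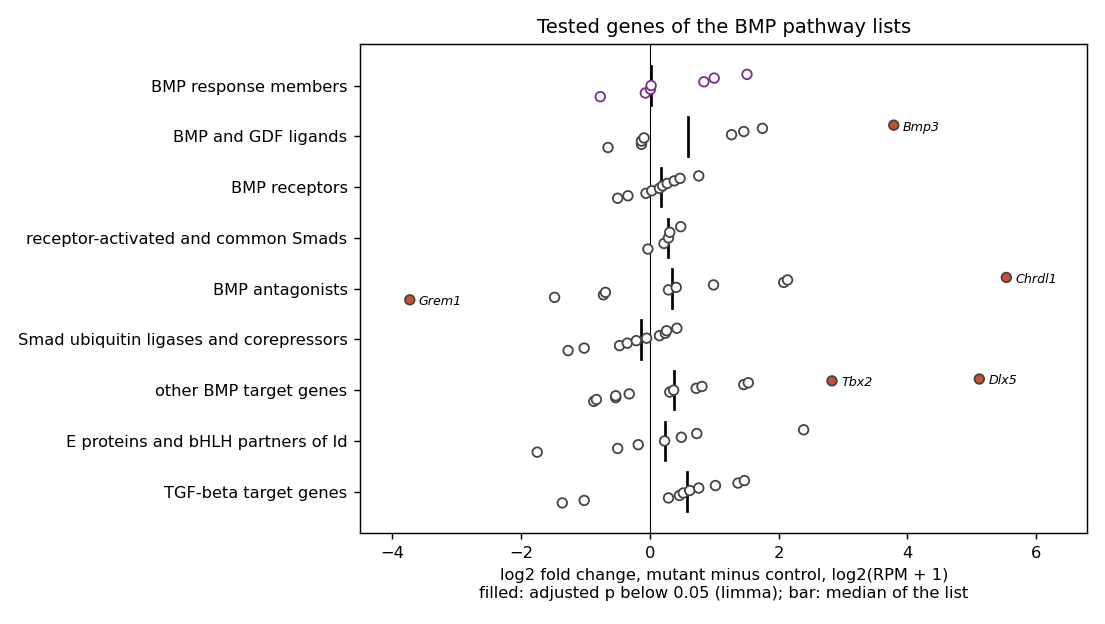
Log2 fold change (mutant minus control, log2(RPM + 1)) of each tested gene in the BMP response list and the 8 other lists, with filled points for limma adjusted p below 0.05 and a bar at each list's median. No point of the BMP response list is filled, and 5 are filled elsewhere: Bmp3, Chrdl1, Dlx5 and Tbx2 on the right and Grem1 on the left.

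Among the partners that Id proteins bind, 0 of 7 tested E protein and related bHLH genes passed in limma with all 4 libraries and no block, with 2 at an unadjusted p below 0.05 (median log2 fold change 0.23). Bhlhe40, a bHLH repressor gene, read 366 and 447 RPM in the controls against 148 and 97 in the mutants (log2 fold change -1.75, adjusted p = 0.0549). It passed by DESeq2 (1.65e-05) and in limma with a replicate block (0.0406), without control 1 (0.00473) and without control 2 (0.00889), and reached 0.637 over 14 alternatives. Tcf3, the E protein gene for E12 and E47, read 38.9 and 38.6 RPM in the controls against 58.9 and 71.2 in the mutants (log2 fold change 0.73, adjusted p = 0.193). Scx, a bHLH gene of tendon, read 22.8 RPM in control 1 and 1.78 in control 2 against 40.5 and 42.9 in the mutants (adjusted p = 0.3), and its log2 fold change was 3.94 without control 1 (limma adjusted p = 0.000259) and 0.84 without control 2 (0.0482), with adjusted p up to 0.876 over 14 alternatives.

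Smad7, Skil and Pmepa1 are also induced by TGF-beta and feed back on it, and all 3 had both mutants below both controls. The share of all tested genes with both mutants below was 21.1%. Pmepa1 read 185 and 250 RPM in the controls against 91.8 and 75.4 in the mutants (log2 fold change -1.36, limma adjusted p = 0.0703, and 0.000437 by DESeq2 to 0.699 over 14 alternatives, with 0.00333 and 0.0121 in limma without control 1 and without control 2). Over the TGF-beta target list 0 of 10 tested genes passed by limma, with 3 at an unadjusted p below 0.05, and the median log2 fold change was 0.57. In that list 3 tested genes had both mutants above both controls and 2 had both below. The matrix gene Ltbp2 differed in the other direction (417 and 886 RPM in the controls against 1510 and 1888 in the mutants, with adjusted p = 0.173, and 0.0363 and 0.00212 without control 1 and without control 2). The 3 feedback genes were set side by side after their values were seen.

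The genes with the nearest profiles were sought for Id1 and Bambi. For Id1, the Id gene with the widest range, the nearest of 8093 candidate genes were Glipr2, Loxl4 and Pak1, with root mean square differences of 0.047, 0.067 and 0.083 between centred log2 values over 4 libraries. For Bambi they were Dnajc9, Cdk14 and Ccnd3 at 0.057, 0.085 and 0.088. Of the candidates, 84 lay within 0.25 of Id1 and 70 within 0.25 of Bambi.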

How the data were processed

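The authors deposited RPM values, amplicon reads brought to the same total in each library, for 4 libraries of an Ion AmpliSeq mouse transcriptome panel (per the labels' protocols). How reads were aligned, counted and filtered, and the genome build, is not given in the sources used here. Such a panel reads 1 short target per gene, so levels of different genes are not on one scale, and sums over marker genes compare libraries only. Symbols were taken from the amplicon names. Low values are whole multiples of what 1 read is worth, and 100% of non-zero values came out whole within 0.01 read. The totals were 18455811 (control 1), 13483518 (control 2), 17460018 (mutant 1) and 14847959 reads (mutant 2).

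The 11638 genes that reached 1 RPM in 2 or more libraries were fitted together with limma 3.58.1 in R 4.3.3 (trend, two-sided, Benjamini-Hochberg, threshold 0.05) on log2(RPM + 1). Counts of calls were also made with edgeR 4.0.16 and DESeq2 1.42.0 on the whole reads. Alternatives were other pseudocounts, filters and scalings, no trend, a replicate block and each library left out. Gene positions come from GENCODE M21 (GRCm38) by symbol and promoters from the RefSeq table.

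The members, lists and tests were chosen with earlier results of these data known. Named genes were the members, up to 6 genes past the threshold in a list or otherwise the 3 with the smallest unadjusted p, the marker of each other cell type with the highest RPM, and the 3 genes nearest in profile to the Id gene and to the inhibitor with the widest range (mean of at least 10 RPM). Other named genes are marked, except further genes of the cell type marker lists, which this rule did not pick.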

Additional observations from a re-analysis of the deposited data

How the results depend on the processing

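The count of members past the threshold was 0 with both controls and both mutants under each pseudocount, filter, scaling and count test tried, and 0 to 3 with a library left out. The ranges of log2 fold changes over the fits that leave out a library were -0.84 to 0.88 for Id1, 0.06 to 1.62 for Id2, -0.36 to 0.38 for Id3, -0.25 to 0.1 for Smad6, -1.18 to -0.36 for Smad7, 0.68 to 1.32 for Smad9 and 1.03 to 1.99 for Bambi. The sign of Id1 and Id3 turned with TMM scaling (-0.06 and -0.06), median-of-ratios scaling (-0.07 and -0.08), edgeR (-0.33 and -0.13) and DESeq2 (-0.35 and -0.14), and that of Smad6 without control 1 (0.10). The median of all genes was 0.08 by limma, -0.02 by edgeR and -0.03 by DESeq2. The cause of these shifts was not tested.

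Over all genes, the 201 higher and 67 lower became 56 and 18 with no filter (more genes tested), 66 and 27 by edgeR, 598 and 493 by DESeq2, and 0 to 1609 and 0 to 802 with a library left out. In the other pathway lists, the 4 higher and 1 lower became 1 and 1 with no filter and by edgeR, 5 and 7 by DESeq2, and 0 to 16 and 0 to 8 with a library left out. Deviations from the group mean correlated at 0.16 between the control and the mutant of the same replicate number. This is a single value, because the 2 libraries of a group deviate from their mean by equal and opposite amounts. The control and mutant libraries share only that replicate number. With that number as a replicate block, 301 genes were higher and 123 lower in all and 5 and 3 in the pathway lists, Bhlhe40 (adjusted p = 0.0406) and Tgif1 (0.0494) passed, and Bambi had an adjusted p of 0.102. Depth limits Smad6 and Smad9 most, at 36 to 139 reads a library.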

Other observations

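Several of the other BMP target genes are known from bone-forming cells. Runx2, an early transcription factor gene of that lineage, read 40.4, 35, 60.1 and 74.3 RPM in the order of the libraries (limma adjusted p = 0.175). Sp7, a later osteoblast transcription factor gene, had no read in either control and stood at 0.401 and 1.62 RPM in the mutants. Alpl, the alkaline phosphatase gene, read 1.46 and 0.742 RPM in the controls against 1.89 and 10.2 in the mutants (limma adjusted p = 0.362). Hey1, a BMP and Notch target, stood at 0.217, 0.593 and 0.286 RPM in control 1, control 2 and mutant 1 and at 3.7 RPM in mutant 2. Mutant 2 was thus the highest library for Runx2, Sp7, Alpl, Hey1, Atoh8 and Smad9. Sp7 and Hey1 did not pass the filter on low values and were not tested. Of the other untested genes in the BMP target list, Hey2 was highest in control 1 and Dlx3 and Hhex in control 2. The remaining tested genes of that list were divided. Tbx2, Gata2, Gata3 and Dlx2 were also highest in mutant 2. Dlx5 was highest in mutant 1, Msx1, Tbx3 and Junb in control 2, and Msx2 and Gata6 in control 1. The genes of this paragraph were set side by side after their values were seen.

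Among markers of other cell types, 2 of the 3 tested pericyte genes, Cspg4 (15.1 and 22 RPM in the controls, 111 and 157 in the mutants, limma adjusted p = 0.0252) and Notch3 (17.8 and 10.9 against 80.2 and 104 RPM, adjusted p = 0.0325), rose and Mcam did not pass (8.45 and 41.8 against 105 and 135 RPM, adjusted p = 0.164). The list did not move together: Abcc9 read 6.23 and 0.89 RPM in the controls against 0 and 0.067, Kcnj8 0.867 and 0.593 against 0.115 and 0.067, and Cox4i2 0 and 26.2 against 0.172 and 0.337 RPM, none of them tested. Also higher past the threshold was Flt1 of the endothelial list (7.86 and 9.86 against 51.3 and 41.3 RPM, adjusted p = 0.0333). The defining endothelial gene Pecam1 stood at 1.41, 24.5, 1.83 and 1.48 RPM and Cdh5 at 1.25, 23.7, 5.9 and 12.1 RPM in the order of the libraries, highest in control 2. Of the stromal progenitor list Dpt rose (19 and 58.1 against 666 and 430 RPM, adjusted p = 0.0389) and 9 of 10 tested genes did not pass. None of 8 tested macrophage markers passed by limma (2 at an unadjusted p below 0.05, median log2 fold change -2.70): Lyz2 read 33.9, 822, 20.8 and 10.4 RPM in the order of the libraries, and Ctss, Tyrobp and Cd68 had adjusted p of 0.225, 0.276 and 0.281. Of 3 tested Schwann cell and melanocyte markers none passed (2 at an unadjusted p below 0.05), with S100b nearest (1.08, 2.89, 12.9 and 14.9 RPM, adjusted p = 0.066) before Mitf (0.224) and Pmel (0.406). Of the skeletal muscle list Acta1 (6.07, 88.9, 25.4 and 53.9 RPM) and Des (51, 24.9, 17.2 and 61.2 RPM) were tested and did not pass, with 0 at an unadjusted p below 0.05, while Pax7, Myod1 and Ckm were at 0 in all libraries. No keratinocyte marker was tested, Cdh1 being the highest at 1.08 RPM in control 1.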
